A study of Mus musculus with 2 samples.

Results

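Circular RNAs from 10 genes that act in receiving and relaying a Notch signal were followed: the receptors Notch1 and Notch2, the proteases Adam10 and Adam17, the ubiquitin ligase Mib1, the inhibitor Numb, the DNA-binding factor Rbpj and the coactivators Maml1, Maml2 and Maml3. A circular RNA (circRNA) forms when the end of an exon is spliced back to the start of the same or an earlier exon, and it is recognised by reads that cross this back-splice junction. The genes were picked by name for their place in the pathway, and each circRNA that the deposited lists give one of these symbols as host gene was taken. They are 10 of 8174 host genes and hold 71 of 31496 listed circRNAs. Of these 71, 65 had at least 1 junction read in either library.

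The series compares circRNAs of sorted intestinal cells from mice of the strain Lgr5GFP-CreERT2, aged 2 months. Lgr5+ cells gave the library labelled ISC, for intestinal stem cells, and Lgr5- cells the library labelled non-ISC. Both groups carry the same Lgr5 reporter allele, there was no treatment, and each group is 1 library. The sources used here do not say whether cells of several animals were pooled. The differences below therefore have no replicates behind them and carry no p-values.

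In Notch signalling a ligand on one cell binds a receptor on its neighbour, and the ligand cell pulls on the receptor by taking the ligand up, which needs Mib1. The pull lets a metalloprotease (mainly Adam10, with Adam17 able to act in some settings) and then gamma-secretase cut the receptor, and its freed inner part joins Rbpj and a Mastermind-like protein (Maml) on DNA to switch genes on. In the intestinal crypt this signal maintains the stem cells and steers progenitors to the absorptive rather than the secretory fate.

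The junctions of the circRNAs on which the results turn are shown to let a reader see which exon ends were joined. Each line holds 60 nt of the sense strand, 5′ to 3′, read from GENCODE M21 transcripts on GRCm38: the last 30 nt of the last exon in lower case, then the first 30 nt of the first exon in capitals. The Adam10 lines share their capitals where they share a first exon, and the Maml lines show the start of exon 2 in each coactivator gene.
Adam10 exons 2 to 4, chr9:70703287-70722771, plus strand: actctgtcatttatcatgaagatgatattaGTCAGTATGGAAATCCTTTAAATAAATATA
Adam10 exons 3 to 4, chr9:70718658-70722771, plus strand: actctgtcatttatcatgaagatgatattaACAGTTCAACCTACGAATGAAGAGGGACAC
Adam10 exons 5 to 7, chr9:70740075-70746326, plus strand: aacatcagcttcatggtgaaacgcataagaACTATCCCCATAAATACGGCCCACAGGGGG
Adam10 exons 5 to 8, chr9:70740075-70748266, plus strand: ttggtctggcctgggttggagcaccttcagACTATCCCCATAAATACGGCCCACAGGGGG
Adam17 exons 8 to 17, chr12:21328045-21342977, minus strand: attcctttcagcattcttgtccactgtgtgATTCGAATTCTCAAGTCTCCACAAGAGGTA
Adam17 exons 14 to 16, chr12:21329054-21332210, minus strand: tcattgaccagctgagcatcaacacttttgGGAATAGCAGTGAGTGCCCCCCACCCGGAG
Adam17 exons 3 to 5, chr12:21349785-21354013, minus strand: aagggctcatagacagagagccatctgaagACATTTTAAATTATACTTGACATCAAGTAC
Notch1 exons 28 to 30, chr2:26464806-26465566, minus strand: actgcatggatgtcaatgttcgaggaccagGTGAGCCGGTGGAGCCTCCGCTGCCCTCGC
Notch2 exons 3 to 5, chr3:98070860-98082039, plus strand: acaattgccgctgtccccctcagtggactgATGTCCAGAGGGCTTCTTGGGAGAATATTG
Maml1 exons 2 to 3, chr11:50263250-50267010, minus strand: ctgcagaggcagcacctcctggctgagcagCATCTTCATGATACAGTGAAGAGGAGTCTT
Maml2 exon 2, chr9:13619990-13621675, plus strand: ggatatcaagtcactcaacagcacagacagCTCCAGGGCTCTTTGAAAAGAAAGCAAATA
Maml3 exon 2, chr3:51855499-51857076, minus strand: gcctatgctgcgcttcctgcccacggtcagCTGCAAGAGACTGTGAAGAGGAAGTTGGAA

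The library labelled ISC held 156582 junction reads in all and the one labelled non-ISC 76331, so that 3 reads, the limit a count of 0 allows, equal 19.2 and 39.3 per 1000000 junction reads. Ratios divide the share of the junction reads labelled ISC by the share of those labelled non-ISC and have exact conditional 95% intervals, which cover counting error only and compare 2 libraries rather than 2 cell types. A gene or circRNA was called higher or lower where the libraries together held 10 reads or more, the levels were at least 2-fold apart and the interval left out 1. Reads in one library against 0 in the other count as over 2-fold apart, so that a gene or circRNA that reached 10 reads through 1 library was called by that alone. Scaling by median ratios moves every log2 ratio up by 0.31, and scaling by library totals by 1.49, so that each ratio above 0.355 then lies above 1. In such bulk libraries fewer cells of a type and less RNA per cell cannot be told apart.

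The libraries did not follow their labels in their cell type markers. Of 20 lymphocyte genes, 18 had reads, and all 15 that could be tested were higher in the library labelled ISC. The sum was 46800 per 1000000 junction reads against 1808, and Satb1 alone held 4292 of its 7328 reads labelled ISC. Of 20 genes of intestinal epithelium, 16 had reads, and all 7 with enough reads were lower in the library labelled ISC. The sum was 44.7 against 37102, and Btnl1 alone held 2421 of its 2832 reads labelled non-ISC. In the library labelled ISC 13 of these 20 were at 0 and had reads in the other library, among them Epcam (0 against 59 reads) and Cdh1 (0 against 12 reads). Among 14 crypt stem cell genes the sum was 42 reads labelled ISC against 189 labelled non-ISC, or 268 against 2476 per 1000000 junction reads. Of the 6 tested, 5 were lower in the library labelled ISC, and Znrf3, with 23 and 12 reads, was not called. Lgr5 itself, the gene of the sort, had 0 against 7 reads, too few to test. In the library labelled non-ISC 10 of the 18 lymphocyte genes were at 0. These sums separate the same 2 libraries as every call below, and their part in the calls was not tested. The marker lists were chosen with earlier results of these data known.

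The Notch genes together had 268 junction reads labelled ISC and 124 labelled non-ISC, which is 1712 and 1624.5 (ratio 1.05) per 1000000 junction reads. The proteases Adam10 and Adam17 made up most of this in both libraries, with 67.9% (95% interval 62.0 to 73.5%) and 66.1% (57.1 to 74.4%). Of the 10 genes 7 had at least 10 reads over both libraries, and of these Maml2 was higher in the library labelled ISC, Numb was lower and 5 were not called. With library totals in place of junction totals Notch2, Adam10, Adam17, Mib1 and Maml2 were called higher and none was lower. Maml2 reached 10 reads through the library labelled ISC alone, as did 462 of the 2920 host genes tested (15.8%) through one library or the other. Over all 2920, 26.7% were called higher and 22.7% lower, so that 1 call in each direction among 7 genes is no more than the background.

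**Figure D1:**
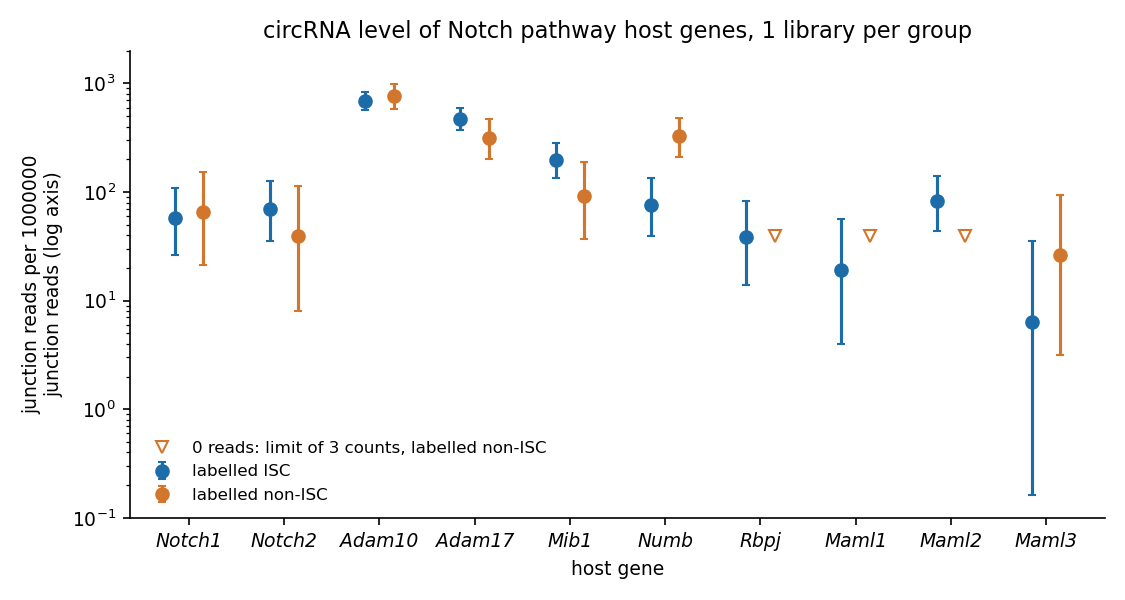
Junction reads per 1000000 junction reads (log axis) of the 10 host genes in the library labelled ISC (blue) and the library labelled non-ISC (orange), 1 library each; bars are exact 95% counting intervals and open triangles the limit of 3 counts where no read was found. Adam10 stands at 690 and 760, Numb at 76.6 and 328, and Rbpj, Maml1 and Maml2 have no read in the library labelled non-ISC.

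Notch1 (chr2:26457903-26516663) and Notch2 (chr3:98013527-98150361) encode the receptors, and their circRNAs were scarce. Notch1 had 9 junction reads labelled ISC and 5 labelled non-ISC, a ratio of 0.877 (0.264 to 3.33) that turned above 1 with median-ratio scaling (1.09) and library totals (2.47). All 9 reads of the first library and 3 of the 5 of the other lay on the circle of exons 28 to 30, a coding stretch of 471 nt, codons 1713 to 1870. In the protein this stretch holds the membrane-spanning segment and the site that gamma-secretase cuts. The ratio of that circRNA was 1.46 (0.365 to 8.40), and the other 2 reads labelled non-ISC joined exons 7 to 9.

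Notch2 had 11 junction reads labelled ISC and 3 labelled non-ISC, a ratio of 1.79 (0.472 to 9.98), and was not called. Its circle of exons 3 to 5 had 5 and 3 reads, or 45.5% (16.7 to 76.6%) and all of the reads. A further 3 Notch2 circRNAs, with 3, 2 and 1 reads, had an entry in the library labelled ISC alone. At this depth a 2-fold difference of either receptor was not detectable.

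Adam10 (chr9:70678997-70780229), which makes the first ligand-dependent cut, was the most abundant of the 10 genes in both libraries. It had 108 junction reads labelled ISC and 58 labelled non-ISC, or 690 and 760 per 1000000 junction reads, which put it at percentiles 95.3 and 95.1 of the host genes with reads. The ratio was 0.908 (0.654 to 1.27), or 1.12 under median-ratio scaling, and its reported interval leaves no room for a 2-fold difference between these libraries on this scale. Scaled by library totals it was 2.56 and called higher.

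By junction reads, 1 circle held most of Adam10 in both libraries. Exons 2 to 4, 429 nt that cover codons 19 to 162 in the part coding for the prodomain and keep the reading frame, had 67 and 34 reads, a ratio of 0.961 (0.627 to 1.50). That is 62.0% (52.2 to 71.2%) and 58.6% (44.9 to 71.4%) of the reads of the gene. By the deposited count its share was 28.3% and 41.0%, and labelled ISC its count of 67 came after one of 70 for a circRNA (chr9:70731573-70744003) with 4 junction reads. The shorter circle of exons 3 to 4, which ends on the same donor, had 7 and 4 reads, a ratio of 0.853 (0.217 to 3.97). Circles that end on exon 4 thus held 74 of 108 and 38 of 58 reads.

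The circles that start at exon 5 of Adam10 had 14 reads in each library together. Exons 5 to 7 had 11 reads labelled ISC and no entry labelled non-ISC, while exons 5 to 8 had no entry labelled ISC and 7 reads labelled non-ISC. Exons 5 to 9 had reads in both libraries, 3 and 4. Over all first exons, circles ending on exon 7 had 11 and 0 reads and circles ending on exon 8 had 3 and 9. A missing entry need not be 0 reads, so these are given with no fold. Of the 18 Adam10 circRNAs with reads 5 had reads in both libraries (27.8%), beside 4375 of 26265 over all circRNAs (16.7%), so a circle seen in 1 library is the usual case.

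Adam17 (chr12:21323509-21373632), the related protease that also sheds cytokines and growth factor ligands, had 74 junction reads labelled ISC and 24 labelled non-ISC, or 473 and 314 per 1000000 junction reads. The ratio of 1.50 (0.937 to 2.49) was not called. Over the 3 shared circRNAs it was below 1 (0.699), and by library totals it was 4.23 and called higher. The library labelled ISC held 13 Adam17 circRNAs with reads and the library labelled non-ISC held 4, and 3 of the 14 (21.4%) were in both, beside the 16.7% of all circRNAs.

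The leading Adam17 circle differed between the libraries. Exons 8 to 17, 1239 nt in 10 exons, had 12 junction reads labelled ISC and 14 labelled non-ISC, a ratio of 0.418 (0.177 to 0.973), and was called lower, a call lost with median-ratio scaling. Its share of the Adam17 reads was 16.2% (8.67 to 26.6%) in the first library and 58.3% (36.6 to 77.9%) in the second, and these intervals do not overlap. Such separate intervals for the leading circle of the library labelled non-ISC were found in 25.5% of the 600 host genes whose reads reached 20 in both libraries, and the leading circle differed in 27.5% of them. By the deposited count, a wider read assignment, the same circle had 134 and 14 reads and led in both libraries, with 68.4% of the counts of the gene in the first.

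Exons 14 to 16 led Adam17 in the library labelled ISC. They had 19 reads there and 8 in the other library, a ratio of 1.16 (0.484 to 3.06). Their share was 25.7% (16.2 to 37.2%) and 33.3% (15.6 to 55.3%). Exons 3 to 5, with 10 reads labelled ISC and no entry labelled non-ISC, were the circle just inside the minimum of 10 reads. Of the circles that could be numbered, those closing on exon 16 had 32 and 8 reads, and those closing on exon 17 had 16 and 14. A further circRNA (chr12:21329054-21342982), with 1 read labelled non-ISC, also closed on exon 16. Its other end lay 5 nt from the nearest annotated exon boundary.

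**Figure D2:**
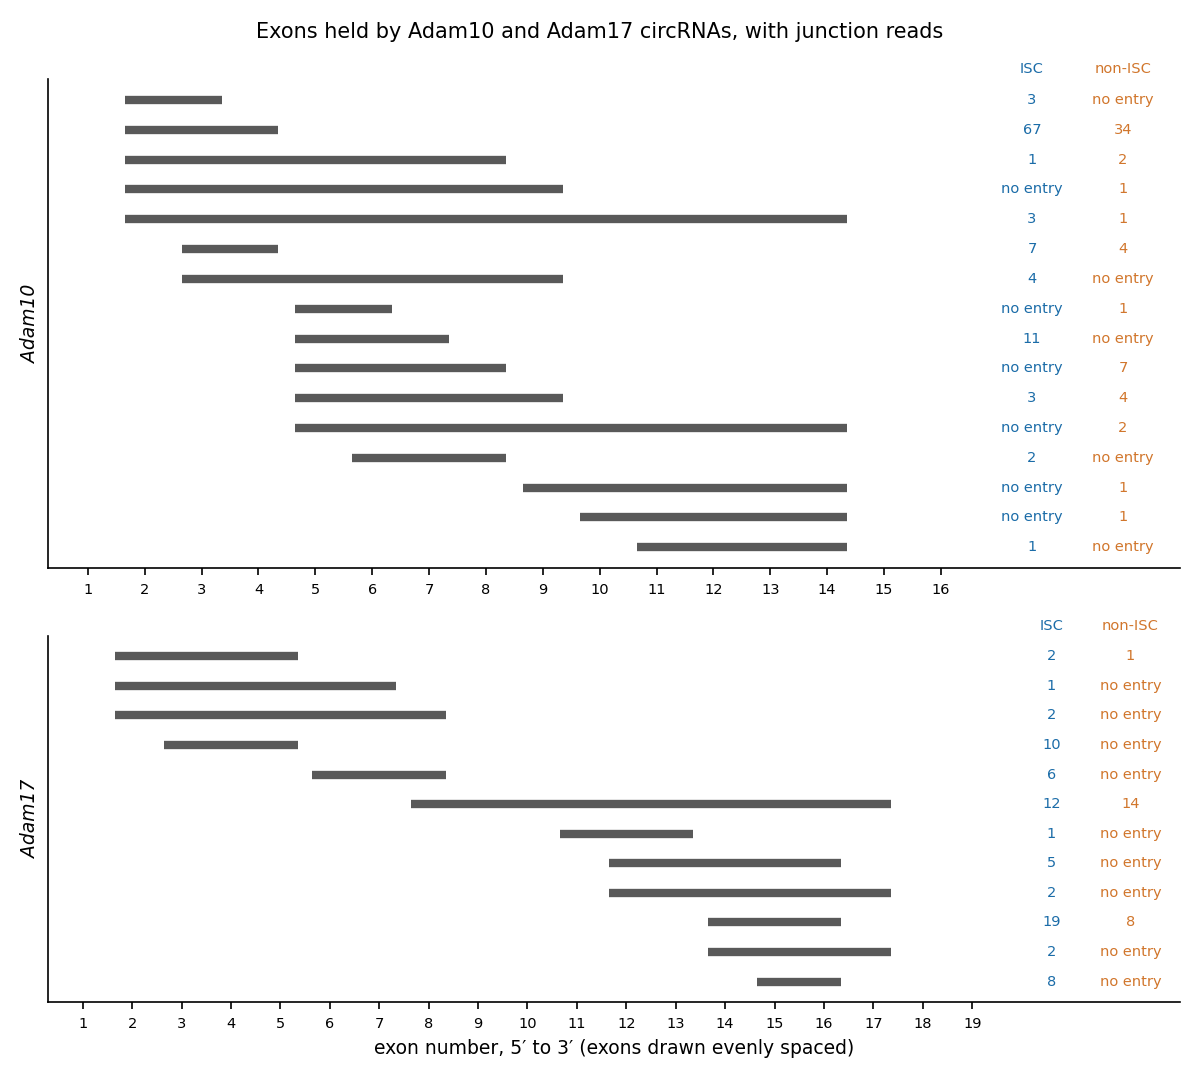
Exons held by the circRNAs of Adam10 (16 of its 18 with reads) and Adam17 (12 of its 14) that could be numbered on 1 transcript; the horizontal axis is the exon number and the columns give junction reads in the library labelled ISC and the library labelled non-ISC. Exons 2 to 4 lead Adam10 in both libraries with 67 and 34 reads, and exons 8 to 17 of Adam17 have 12 and 14.

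Mib1, whose protein tags Notch ligands for uptake, had 31 junction reads labelled ISC and 7 labelled non-ISC, or 198 and 91.7 per 1000000 junction reads. The ratio of 2.16 (0.933 to 5.81) missed the call because its interval includes 1, and with median-ratio scaling it was 2.67 (1.15 to 7.18) and called higher. By the deposited count the direction turned, to 0.513 (0.352 to 0.754), and over the circRNAs found in both libraries the ratio was 1.22. The reads were spread over 11 circRNAs, 2 of them with reads in both libraries. The one with the most reads over both had 6 and 2, a ratio of 1.46 (0.262 to 14.8), and both its ends are exon ends of 1 annotated transcript. Circles that start at exon 2 had 12 reads labelled ISC and 0 labelled non-ISC, and those that start at exon 6 had 0 and 3. One of the former, exons 2 to 6, is listed in both libraries, with 4 and 0 junction reads but deposited counts of 4 and 10.

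Numb (chr12:83794034-83921934) encodes an adaptor that binds Notch and promotes its removal, and it was the one gene of the 10 called lower. It had 12 junction reads labelled ISC and 25 labelled non-ISC, or 76.6 and 328 per 1000000 junction reads. The ratio was 0.234 (0.107 to 0.483). Its share of all reads of the 10 genes was 4.48% (2.33 to 7.69%) and 20.2% (13.5 to 28.3%). The call was lost with library totals (0.659, 0.302 to 1.36).

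Of the 8 Numb circRNAs with reads 1 had reads in both libraries (12.5%), beside the 16.7% of all circRNAs. Circles starting exactly at exon 2 had 19 of the 25 reads labelled non-ISC (76%, 54.9 to 90.6%) where their other end is an exon end, and none of the 12 labelled ISC. The leading one, exons 2 to 5 (chr12:83831922-83876812, minus strand, 446 nt, with the start codon inside), had 12 reads labelled non-ISC and no entry labelled ISC. Without it Numb stood at 12 and 13 reads, a ratio of 0.450 (0.188 to 1.07), and was no longer called. Labelled ISC, 5 reads were on exons 3 to 5, which had no entry labelled non-ISC. The other 7, against 1, a ratio of 3.41 (0.438 to 154), were on a circRNA (chr12:83876668-83880089) that ends on the end of exon 2. That circRNA begins, on this minus-strand gene, 3277 nt from the nearest annotated exon start. It was the 1 Numb circRNA with reads in both libraries, so over shared circRNAs the direction of Numb turned.

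**Figure D3:**
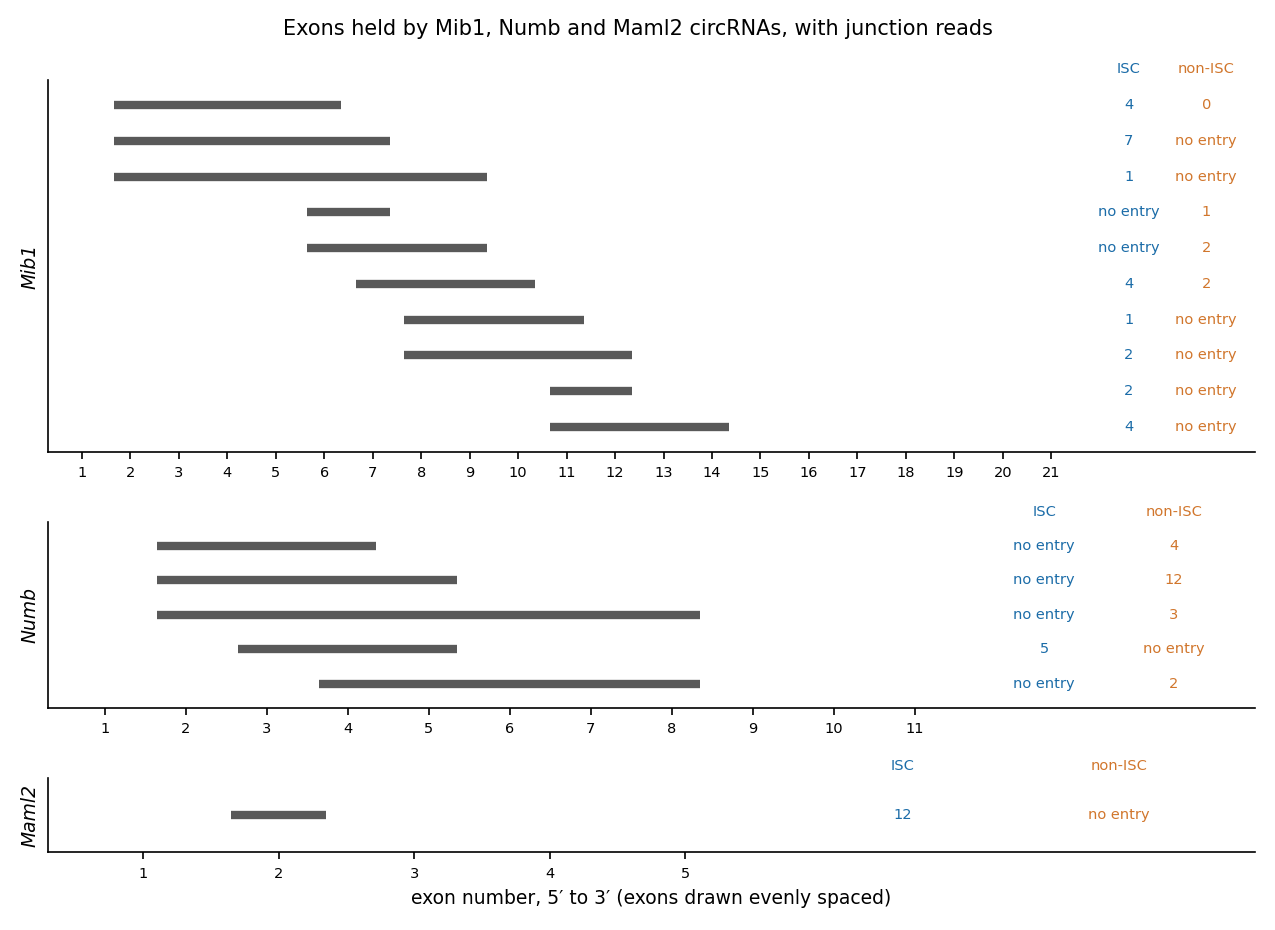
Exons held by the circRNAs of Mib1 (10 of its 11 with reads), Numb (5 of its 8) and Maml2 (1 of its 2) that could be numbered on 1 transcript; the horizontal axis is the exon number and the columns give junction reads in the library labelled ISC and the library labelled non-ISC. Numb circles that start at exon 2 have 4, 12 and 3 reads labelled non-ISC and no entry labelled ISC.

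Rbpj (chr5:53466152-53657362), the factor through which the cut receptor reaches DNA, had 6 junction reads labelled ISC and 0 labelled non-ISC, too few to test. All 6 were on chr5:53627383-53653681, whose start is an exon start and whose end lies 496 nt from the nearest annotated exon end. The library labelled non-ISC lists that circRNA with a deposited count of 43 and 0 junction reads. The deposited count labelled ISC was 66.

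Maml2 (chr9:13297957-13709388) had 13 junction reads labelled ISC and no entry labelled non-ISC, at least 2.11-fold higher against the limit of 3 reads in that library, a bound that leaves out the counting error of the 13 reads. It was the one gene of the 10 called higher, and with 0 reads in the other library reaching the minimum of 10 reads fixed that call. Of the 13 reads 12 were on exon 2 alone, a coding circle of 1686 nt. With junction reads halved, to allow for pairs of which both mates cross a junction, Maml2 had too few reads for a call. The exon 2 circle is flanked by introns of 321428 nt upstream and 75498 nt downstream, at percentiles 99.98 and 99.1 of the numbered exonic circRNAs with reads.

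The other coactivators were near the limit of detection. Maml1 (chr11:50255634-50292311) had 3 junction reads labelled ISC, on exons 2 to 3 and exons 2 to 4, and 0 labelled non-ISC. Maml3 (chr3:51685907-52105076) had 1 and 2, each on a different circRNA, and 1 of the reads labelled non-ISC was on exon 2 alone, a circle of 1578 nt between introns of 246602 and 157655 nt. All 3 coactivator genes thus had a circle starting at exon 2, in Maml3 on 1 read alone, after an upstream intron that was 24715 nt long in Maml1. Exon 2 was also the first exon in 26.1% of all numbered circRNAs with reads. The first 30 nt of exon 2, in capitals above, had 17 identical bases between Maml2 and Maml3 when set side by side without gaps. Maml1 and Maml3 had 9, but they share the run GTGAAGAGGA at different positions.

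**Figure D4:**
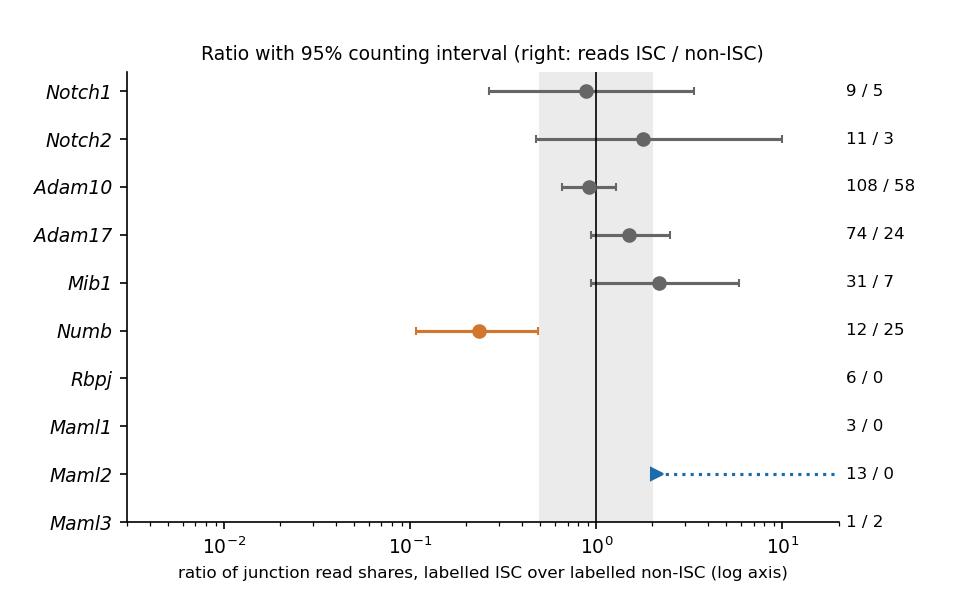
Ratio of junction read shares, labelled ISC over labelled non-ISC (log axis), for the 10 host genes, with exact 95% counting intervals; the arrowhead marks the bound of 2.11 for Maml2 against the limit of 3 reads, no ratio is drawn for Rbpj, Maml1 and Maml3, the grey band spans 2-fold either way, and the numbers are reads. Numb lies below the band (0.234), Maml2 was called higher, and the intervals of Notch1, Notch2, Adam10, Adam17 and Mib1 include 1.

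At the level of single circRNAs, 9 had at least 10 reads over both libraries. Called higher were 3 (Adam10 exons 5 to 7, Adam17 exons 3 to 5, Maml2 exon 2), lower were 2 (Adam17 exons 8 to 17, Numb exons 2 to 5) and 4 were not called. Over 3659 circRNAs tested, 32.4% were called higher and 23.0% lower. Of these 5 calls 4 set reads in one library against no entry in the other, so they were fixed by reaching 10 reads and say nothing further, and 1117 of the 3659 (30.5%) had reads in 1 library alone. Among the 5 with reads in both libraries 0 were higher and 1 was lower, beside 15.7% higher and 20.2% lower over 2542 such circRNAs. Just below the minimum, at 8 reads, were Notch2 exons 3 to 5, Adam17 exons 15 to 16 (8 reads labelled ISC, no entry labelled non-ISC) and a circRNA each of Numb and Mib1.

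The build of the circRNAs of the 10 genes is set beside that of all circRNAs. For 55 of the 65 with reads (84.6%) both ends matched exon ends of a single annotated transcript, beside 70.6% of all circRNAs with reads. The 53 that could be numbered held a median of 4 exons and 637 nt, against 3 exons and 476 nt over all 18108 numbered ones. Their upstream intron had a median of 13081 nt against 4799 nt, and their downstream intron 3836 nt against 3614 nt. The upstream introns varied widely among the 10 genes, from 359 to 321428 nt. Exon 2 was the first exon in 18 of 53 (34.0%) against 26.1%, and 19 of 53 (35.8%) had a length that is a multiple of 3 against 38.4%. These are descriptions with no test, since circRNAs of 1 gene share exon ends and introns.

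The deposited count was far above the junction reads for several genes. For Notch1 junction reads were 5.29% and 5.68% of the count, for Notch2 4.30% and 6%, and for Maml2 6.05% labelled ISC. Labelled non-ISC, they were 0 of a count of 69 for Rbpj, 0 of 12 for Maml1 and 2 of 62 for Maml3. For Adam10 they were 45.6% and 69.9%, and for Adam17 37.8% and 68.6%. Over entries of the 10 genes, the measures were equal for 29 of 47 labelled ISC (61.7%) and 20 of 40 labelled non-ISC (50.0%), against 42.3% and 33.3% of all entries. Where an end was no exon end of a shared transcript, the measures were equal for 0 of 7 and 0 of 10. Over all such entries they were equal for 25.4% labelled ISC and 14.0% labelled non-ISC.

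**Figure D5:**
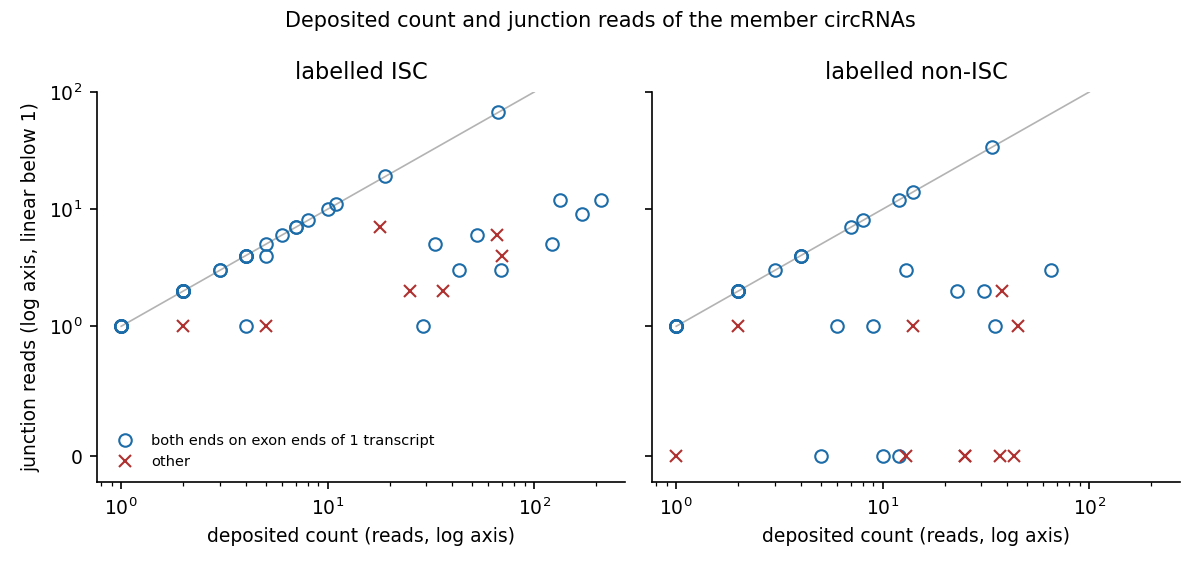
Junction reads (vertical axis, log, linear below 1) against the deposited count of reads (horizontal axis, log) of each circRNA entry of the 10 genes, for the library labelled ISC (47 entries) and the library labelled non-ISC (40 entries); the line marks equal values, circles have both ends on exon ends of 1 transcript and crosses do not. All crosses lie below the line, and 9 entries labelled non-ISC have 0 junction reads.

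Of 67 other genes of the pathway (receptors, ligands, gamma-secretase, glycosylation, ubiquitin ligases, coactivators, corepressors and targets), 30 had reads and 19 could be tested. Of the 19, 4 were called higher in the library labelled ISC and 4 lower, and 11 were not called, so neither count exceeds the background over all host genes. Their sum was 1495 and 756 reads, a ratio of 0.964. The median log2 ratio of the tested genes was -0.45, beside 0.57 for the 7 tested genes of the main set and 0.16 over all host genes tested. These medians were the same with genes at 0 in one library placed at the limit of 3 reads.

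Among the higher ones, Fbxw7, the F-box protein that marks the cut receptor for degradation, had the most reads, with 342 labelled ISC and 78 labelled non-ISC, a ratio of 2.14 (1.67 to 2.77). Aak1, a kinase of endocytic adaptors, had 57 and 10, a ratio of 2.78 (1.41 to 6.10). Kat2b, a histone acetyltransferase, had 40 and 1, a ratio of 19.5 (3.30 to 789). Aph1a, a gamma-secretase subunit, had 10 and 0, at least 1.62-fold higher against the limit of 3 reads, without the counting error of the 10. As that bound is under 2-fold, its call rests on the 0 alone.

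The lower ones included 2 genes of transcriptional repression, Ctbp2, with 16 reads labelled ISC and 37 labelled non-ISC (ratio 0.211, 0.109 to 0.388), and the Groucho corepressor Tle1, with 0 and 10. The ubiquitin ligase Nedd4 had 6 and 13 reads, a ratio of 0.225 (0.0701 to 0.634). Furin, which cuts the receptor on its way to the surface, had 6 and 10, a ratio of 0.292 (0.0874 to 0.888), and was not called with median-ratio scaling. The abundant Cdk8, a Mediator kinase, had 174 and 120 reads (0.707) and the coactivator Ep300 had 152 and 101 (0.734), and neither was called. With library totals their ratios turned to 1.99 and 2.07, and Ep300 was then called higher. By library totals 1 of the 4 lower genes, Tle1, was still called.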

How the data were processed

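Before paired-end sequencing, ribosomal RNA was removed and RNase R was used to digest linear RNA, per the labels' protocols. Trimmomatic 0.36 and FastQC are named in the submitters' processing notes. An aligner or caller was not given in the sources used here. Per circRNA the authors deposited a count of reads, an RPM value (that count per 1000000 reads) and a count of junction reads, per the file headers. The last was used. How the wider count was assigned is not given.

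Dividing the deposited count by the RPM value gives library totals of 52636694 reads labelled ISC and 72271995 labelled non-ISC. The notes name mm9, but 79.4% and 76.6% of starts fell on GENCODE M21 exon starts of GRCm38, against at most 0.344% of starts or ends when shifted by 1 nt, so coordinates are GRCm38, counted from 1. Exon numbers follow 1 annotated transcript.

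Reads were summed by host gene, with a missing entry as 0, while single circRNAs against a missing entry have no fold. Limits of 0 are 3 counts per library. Shares and ratios have exact Clopper-Pearson intervals (Python 3.11.15, SciPy 1.17.1, pandas 2.3.3, numpy 2.4.6), which assume independent reads, although both mates of a pair can cross a junction. Median log2 ratios used a pseudocount of 0.5 reads. The ratio script was tested on simulated data. Alternatives were 2 other scalings, the other count column, halved reads, shared circRNAs, exonic circRNAs, other read minimums and leaving out a leading circRNA. The count column with library totals was added after seeing the data.

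Named were all 10 genes, their circRNAs with at least 10 reads, the most abundant circRNA of each gene, those next to the minimum, and, of the other pathway genes, each called one and the 3 with the most reads. The genes, pathway list and marker lists were chosen with earlier results of these data known.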

Additional observations from a re-analysis of the deposited data

Results flagged for a closer look

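Among the entries labelled non-ISC, 8 circRNAs of the 10 genes have 0 junction reads but a deposited count above 3, the limit that a count of 0 allows, in the column not used for the comparisons. In Rbpj the counts were 43 for the circRNA that has 6 junction reads in the library labelled ISC, and 25 for a second one. In Notch2 the count was 37, in Adam10 25, in Maml3 13, in Maml1 12, in Mib1 10 and in Adam17 5. Over all entries labelled non-ISC, 12202 of 18324 had junction reads, beside 31 of 40 for the 10 genes. Entries with 0 junction reads are thus found across the whole list and are not particular to these genes. No entry of the library labelled ISC has 0 junction reads, among the 10 genes or over all 18438. Which reads these counts hold was not tested.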

How the results depend on the processing

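The called direction of 1 gene turned, and the uncalled ratios of Notch1, Notch2, Adam10, Adam17 and Mib1 each crossed 1 under at least 1 alternative. Library totals move every log2 ratio by 1.49, median-ratio scaling by 0.31, and the higher share of called host genes went from 54.0% to 84.1% and 61.7%. Of the 10 genes, 1 higher became 5 by library totals, 2 by median-ratio scaling, 0 with halved reads, 0 over shared circRNAs and 6 with counts and library totals; 1 lower became 0 by library totals, 4 by counts and 0 over shared circRNAs. Numb turned to 3.41 over shared circRNAs. Of their circRNAs, 3 higher became 6 by library totals, 10 by counts, 0 with halved reads, 0 when shared and 17 with counts and library totals, and 2 lower became 1, 13, 0, 1 and 9, and 1 by median-ratio scaling. All host genes called higher numbered 779 as reported, 1717 by library totals, 1623 by counts, 439 halved, 240 shared and 3504 by counts with library totals, and those lower 663, 324, 3932, 414, 348 and 2467. All circRNAs higher numbered 1187, then 2140, 6622, 472, 398 and 9466, and 595 with a minimum of 20 reads. Those lower numbered 841, then 426, 8982, 355, 513 and 7674, with 1626 at a minimum of 5 reads and 431 at 20. Of the other pathway genes, 4 higher became 10 by library totals, 1 shared and 20 by counts with library totals, and 4 lower became 1, 17 by counts, 2 halved, 1 at a minimum of 20 and 10 by counts with library totals. By counts, the shares of the circles that lead by junction reads went to 28.3% and 41.0% for Adam10 and 68.4% for Adam17 labelled ISC. The cause was not tested. No paired analysis was possible because each group is 1 library. Many circRNAs here had few reads: 20 of the 47 with reads labelled ISC and 20 of the 31 labelled non-ISC had 1 or 2.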

Other observations

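Inside the bounds of the 10 genes, 3 circRNAs are listed under another name or with no host gene and were not counted above. In Maml2 one with no host gene (chr9:13567985-13568302) had 4 junction reads labelled ISC and 0 labelled non-ISC. In Rbpj one with no host gene (chr5:53536786-53537127) had 0 and 2. In Maml1 one under a FANTOM transcript name (chr11:50275244-50284594) had 0 junction reads in both libraries and a deposited count of 71 labelled non-ISC.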
